A study of Mus musculus with 90 samples.

Results

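Where H3K9me3, Uhrf1 and Trim28 lie in relation to each other was examined in TKOL mouse embryonic stem cells (ESCs), a state with little DNA methylation. The members are all 201529 peaks in the 3 pooled TKOL peak lists on chromosomes 1 to 19, X and Y, of 892319 peaks in the 24 peak lists of the series. They comprise 104618 H3K9me3, 40750 Uhrf1 and 56161 Trim28 peaks, and no peak was chosen by its value. The 6 single-replicate TKOL lists, 2 for each mark, served as a check. They held 55121 and 32702 H3K9me3 peaks, 17437 and 14811 Uhrf1 peaks and 31911 and 16960 Trim28 peaks for replicates 1 and 2. TKOL cells are a clonal J1 line without catalytically active Dnmt3a and Dnmt3b, in which a Cre-excisable shRNA depletes Dnmt1. They were kept with LIF on growth-arrested CD1 feeder fibroblasts, whose share of the chromatin was not tested. DKO0 cells, used for comparison, are the same line after excision of the shRNA, so that Dnmt1 is back and Dnmt3a and Dnmt3b are still missing. WT refers to V6.5 ESCs. H3K9me3 and Trim28 were mapped by ChIP-seq with antibodies. Uhrf1 was mapped by ChIPmentation, a ChIP protocol with transposase-made libraries, through a 3xFLAG tag at the endogenous gene in an edited clone, so that clone and assay cannot be told apart from the mark. The peak lists hold neither expression nor methylation, and the label of the cells was not checked against markers.

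H3K9me3 is the histone mark of silent heterochromatin. At retrotransposons it is placed by Setdb1, which is brought in by the co-repressor Trim28, and Trim28 itself is guided to its sites by KRAB zinc finger proteins that read DNA sequence. Uhrf1 binds hemimethylated DNA and methylated H3K9 and recruits Dnmt1. Intracisternal A particles (IAPs) are mouse endogenous retroviruses with many young copies, of which the IAPez type has an internal part, starting with gag, between a pair of long terminal repeats (LTRs). They are a textbook target of all of these factors in ESCs.

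The sequences on which the results turn are given here, 5′ to 3′ and on mm9, with CpGs in capitals in the genomic windows. The first are parts of IAPs, taken from the designed oligos and assays of the study and found again in the genome. The IAPez window lies 800 to 1000 bp upstream of the gag product on the minus strand, where Uhrf1 peaks were most frequent, and its Uhrf1 peak had a fold enrichment of 5.08.
gag forward primer: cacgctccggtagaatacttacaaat
gag reverse primer: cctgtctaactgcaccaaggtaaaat
IAP RNA FISH probe: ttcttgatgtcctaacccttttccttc
IAP LTR part: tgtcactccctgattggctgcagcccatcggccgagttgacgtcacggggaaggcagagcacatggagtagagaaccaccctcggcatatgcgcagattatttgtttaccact
IAPez window at chr13:9438475-9438674: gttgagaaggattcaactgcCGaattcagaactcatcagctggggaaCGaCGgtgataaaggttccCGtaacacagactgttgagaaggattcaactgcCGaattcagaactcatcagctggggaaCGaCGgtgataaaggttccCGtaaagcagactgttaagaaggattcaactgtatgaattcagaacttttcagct

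The next are the plus-strand cores of the 3 loci at which the weakest of the 3 marks was strongest, shown because they carry the same sequence, which runs in the opposite direction in locus 2.
Locus 1 at chr5:101416976-101417175: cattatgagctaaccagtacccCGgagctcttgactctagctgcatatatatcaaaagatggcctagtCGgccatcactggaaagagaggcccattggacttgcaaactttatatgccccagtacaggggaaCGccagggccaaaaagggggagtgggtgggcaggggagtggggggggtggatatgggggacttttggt
Locus 2 at chr1:159807426-159807625: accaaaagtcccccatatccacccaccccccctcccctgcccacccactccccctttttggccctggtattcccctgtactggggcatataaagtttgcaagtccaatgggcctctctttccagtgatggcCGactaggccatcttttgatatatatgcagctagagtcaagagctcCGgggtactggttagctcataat
Locus 3 at chr1:159529483-159529682: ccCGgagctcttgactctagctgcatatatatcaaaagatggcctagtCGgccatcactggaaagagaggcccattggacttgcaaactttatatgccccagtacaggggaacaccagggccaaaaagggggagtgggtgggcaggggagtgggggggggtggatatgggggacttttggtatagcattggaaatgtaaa

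The last windows, also on the plus strand, are cores at the 2 protein-coding genes that rank highest by the same measure.
4930425F17Rik at chr2:131473297-131473496: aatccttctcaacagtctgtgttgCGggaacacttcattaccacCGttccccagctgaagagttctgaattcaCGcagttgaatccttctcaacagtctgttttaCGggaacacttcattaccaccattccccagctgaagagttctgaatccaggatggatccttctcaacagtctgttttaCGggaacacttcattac
4930423O20Rik at chr16:70382828-70383027: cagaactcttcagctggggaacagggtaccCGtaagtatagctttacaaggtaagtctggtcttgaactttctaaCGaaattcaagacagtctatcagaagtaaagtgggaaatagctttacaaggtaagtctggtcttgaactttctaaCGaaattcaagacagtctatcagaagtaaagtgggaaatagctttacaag

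The 3 marks fell together far more often than shuffled positions did. Of the Trim28 peaks, 69.0% touched an H3K9me3 peak by at least 1 bp, against 4.80% on average (4.50% to 5.12%) over 1000 placements of the Trim28 peaks on the same chromosomes outside assembly gaps, a ratio of 14.4. Of the Uhrf1 peaks, 32.4% touched H3K9me3 (shuffled 3.90%, ratio 8.30) and 25.5% touched Trim28 (shuffled 1.82%, ratio 14.1). Uhrf1 peaks with both other marks made up 24.0% of the list, or 9796 peaks, against 1.41% (1.24% to 1.59%) of placements, a ratio of 17.0. These ratios describe the lists and carry no p, since peaks are not replicates. Read from the side of H3K9me3, the largest list, 29.3% of peaks had Trim28 (shuffled 2.52%) and 8.75% had Uhrf1 (shuffled 1.42%).

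In the pooled lists, Uhrf1 and Trim28 met almost wholly on H3K9me3. Of the Uhrf1 peaks with Trim28, 94.1% also lay on H3K9me3, and of the Uhrf1 peaks without H3K9me3 only 2.22% had Trim28. H3K9me3 without Trim28 held few Uhrf1 peaks as well: of the 30666 H3K9me3 peaks with Trim28, 21.4% had Uhrf1, compared with 3.53% of those without. When the centres of the 13190 Uhrf1 peaks on H3K9me3 were placed at random on H3K9me3 bases, 43.7% (42.1% to 44.9%) touched Trim28, while 74.3% of the real ones did. The ratio given H3K9me3 was 1.70, and it cannot be set against the ratio of 14.1 for the genome at large, because a high shuffled share limits it. By contrast, 66.1% of Uhrf1 peaks, 68.2% of H3K9me3 peaks and 30.0% of Trim28 peaks touched neither of the other marks.

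The single-replicate lists kept all 4 overlaps above the shuffled range, but the shares differed between replicates. In replicate 1, 51.7% of Trim28 peaks touched H3K9me3, 30.2% of Uhrf1 peaks touched H3K9me3, 26.3% touched Trim28 and 18.8% touched both. In replicate 2 the same shares were 43.6%, 9.42%, 10.8% and 4.71%. The Uhrf1 peaks with both marks numbered 3279 in replicate 1 and 698 in replicate 2. The share given Trim28 was also lower there, since 43.8% of the Uhrf1 peaks with Trim28 lay on H3K9me3 in replicate 2 and 71.4% in replicate 1. Replicate lists recovered part of the pooled ones: 13.7% of pooled H3K9me3, 12.5% of Uhrf1 and 12.9% of Trim28 peaks touched a peak in both replicates, and 40.1%, 53.1% and 45.9% in at least 1. The names of the pooled H3K9me3 and Trim28 peaks carry a second library, which both lists share. The names of the pooled Uhrf1 peaks and of all single-replicate peaks carry none. Control may thus differ between the marks in the pooled lists, and control as well as depth between pooled and single lists. The part of control and depth in the overlaps was not tested.

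**Figure D1:**
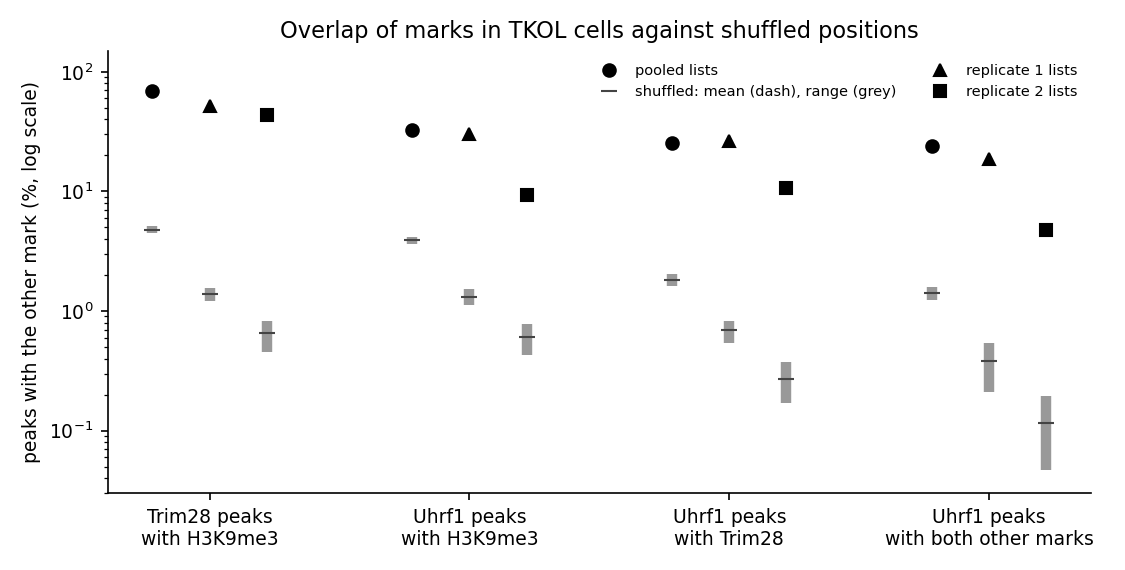
Share of peaks (log scale, percent) that touch another mark, for the pooled lists (circles) and the lists of replicate 1 (triangles) and replicate 2 (squares), with the mean (dash) and the range (grey) of shuffled positions. Every observed share lies above its shuffled range, and for Uhrf1 with both other marks it is 24.0%, 18.8% and 4.71%.

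Overlapping peaks of any mark were joined into 146743 loci. Most held 1 mark: 71344 H3K9me3, 26949 Uhrf1 and 16869 Trim28 only. H3K9me3 and Trim28 shared 22063 loci, H3K9me3 and Uhrf1 2526, and Uhrf1 and Trim28 without H3K9me3 523. All 3 marks were found at 6469 loci, which are 4.41% of loci but 26.8% of the bases in loci, or 23.5 Mb. They were the widest class, with a median of 3064 bp (quartiles 1101 and 5654 bp) and a longest locus of 89408 bp, compared with 712 bp for H3K9me3 and Trim28, 421 bp for H3K9me3 and Uhrf1, 236 bp for H3K9me3 only and 157 bp for Uhrf1 only. A wide locus has more room for a peak of each mark, so width and the number of marks are not independent here. The single-replicate lists gave narrower loci with all 3 marks, of median 634 bp (3627 loci) in replicate 1 and 538.5 bp (794 loci) in replicate 2.

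**Figure D2:**
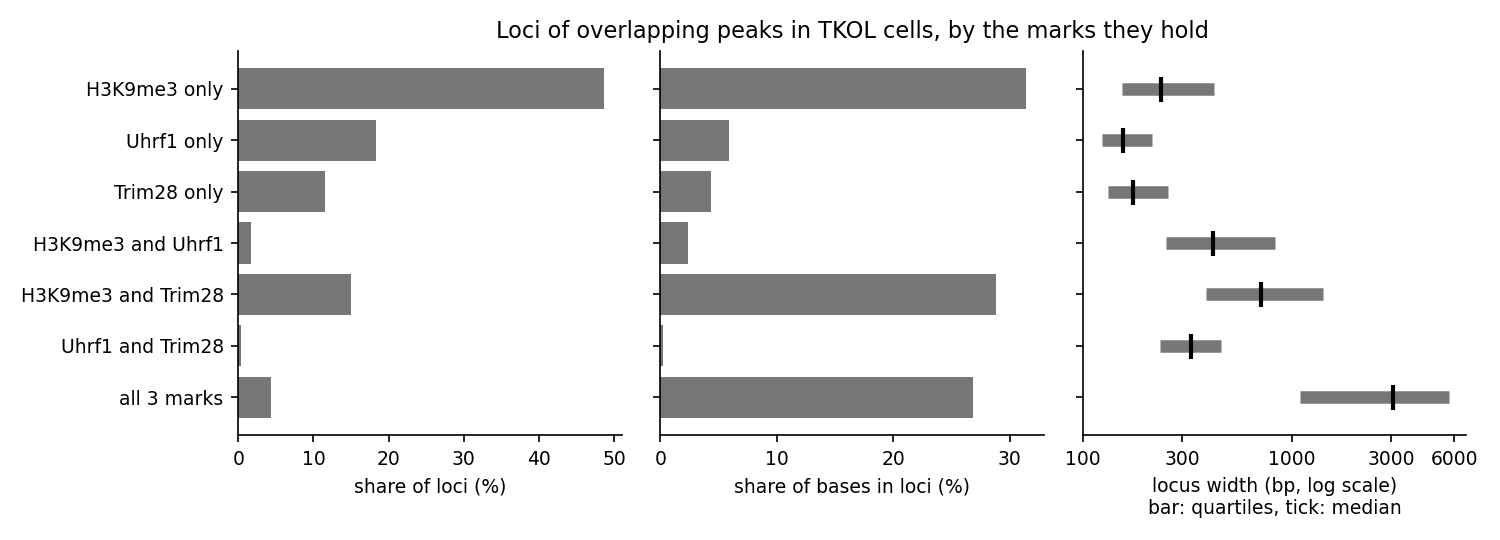
Share of loci (left, percent), share of the bases in loci (middle, percent) and locus width (right, bp on a log scale, bar from the lower to the upper quartile, tick at the median) for each combination of marks in the pooled TKOL lists. Loci with all 3 marks are 4.41% of loci and 26.8% of bases, with a median of 3064 bp.

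To set width apart from Trim28, H3K9me3 peaks were compared within bins of their own width. Among peaks under 200 bp, Uhrf1 was present at 5.33% of those with Trim28 and 2.46% of those without. From 1 to 2 kb the shares were 20.3% and 7.37%, and from 2 to 5 kb 37.8% and 15.6%. Between 5 and 10 kb 85.1% of 2094 peaks with Trim28 had Uhrf1, against 25.6% of the 90 peaks without. Shuffled Uhrf1 peaks hit the same bins at 0.619% and 0.580%, 2.67% and 2.54%, 5.34% and 5.07%, and 10.9% and 10.2%. The share with Uhrf1 was therefore higher with Trim28 than without in each of these bins, in which shuffled positions hardly differed. Trim28 itself was on 12.8% of H3K9me3 peaks under 200 bp and on 95.9% of those from 5 to 10 kb.

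Within loci with all 3 marks, the marks covered very different lengths. H3K9me3 covered a median of 100% of the locus, Trim28 74.4% and Uhrf1 12.2%. Stretches under all 3 marks summed to 2.24 Mb in 9816 segments, of median 184 bp. Each locus was cut into 3 equal parts in genome coordinates. The 10633 Uhrf1 peaks in these loci fell 34.0%, 33.1% and 32.8% into the first, middle and last part. Loci were not turned by the strand of the elements in them, so first and last parts mix both ends of elements. The near-equal shares thus do not show an even spread along elements. The 11386 Trim28 peaks were more often in the middle (45.2%) than in the first (27.4%) or last part (27.4%).

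H3K9me3 and Trim28 peaks with both other marks had higher folds than those alone, and Uhrf1 peaks did not. The fold enrichment used here is the peak's ratio to the local background. H3K9me3 peaks with both other marks had a median fold of 4.73, against 2.79 for those alone, and 66.4% against 3.29% were in both replicate lists. Trim28 peaks with both had a median fold of 4.30, against 2.96 for those alone, and 47.7% against 1.45% were in both replicates. Peaks with both marks were also wider, at medians of 2689 against 236 bp for H3K9me3 and 1058 against 175 bp for Trim28. A wider peak touches a replicate peak more easily, so width and replicate support are not independent here. With Uhrf1 as the only companion, H3K9me3 peaks had a median fold of 2.85 and Trim28 peaks one of 2.85, close to or below those alone. Uhrf1 peaks with both had a median fold of 2.75, against 2.86 for those alone, and 16.2% against 10.2% were in both replicates. Across 5 equal groups of Trim28 peaks by fold, from weak to strong, the share with H3K9me3 was 47.2%, 54.3%, 67.3%, 82.7% and 93.4%. Across 5 such groups of Uhrf1 peaks it was 48.4%, 31.7%, 29.5%, 25.7% and 26.7%, so that it was highest in the weakest group.

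Where all 3 marks met, the loci consisted mostly of repeated sequence and had, over all bases, more CpGs than shuffled loci. Repeated sequence was defined from mm9 itself, as 24-base words with at least 10 copies, which make up 14.5% of sampled words. Such words filled 83.0% of loci with all 3 marks, against 14.5% of shuffled loci, and 90.2% of the loci were made mostly of them. H3K9me3 and Trim28 loci reached 87.0% and Trim28 only 67.8%, while H3K9me3 only reached 49.7% and Uhrf1 only 20.5%. CpG density was 1.86 per 100 bp in loci with all 3 marks (shuffled 0.837) and 1.69 in H3K9me3 and Trim28 loci. It was 1.76 in Trim28 only loci (shuffled 0.830) and 0.643 in Uhrf1 only loci (shuffled 0.840). These densities are pooled over the bases of whole loci, of which Uhrf1 covers little where all 3 marks meet. Without an IAP match, the loci with all 3 marks had a median of 0.936, and with one 2.25. The hexamer TGCCGC, searched on both strands, was in 45.4% of loci with all 3 marks, against 16.8% of shuffled loci. It was in 7.59% of H3K9me3 and Trim28 loci (shuffled 6.12%) and 8.12% of H3K9me3 and Uhrf1 loci (4.11%). Trim28 only loci had it in 3.44% of cases (1.37%), and Uhrf1 and Trim28 loci in 5.54% (2.27%). For H3K9me3 only loci the share was 3.39% (2.21%). A share above shuffled loci was thus not particular to loci with all 3 marks. Uhrf1 only loci had it in 0.853% of cases (1.17%). These shares were not split by IAP match.

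Reads from near-identical copies cannot be assigned to 1 copy, and a filter on mapping quality is not given in the sources used here. Without the peaks made mostly of repeated sequence, 21.5% of 8513 Trim28 peaks had H3K9me3, 6.13% of 24907 Uhrf1 peaks had H3K9me3, 2.21% had Trim28 and 1.39% had both. These shares were lower than in the whole lists, and their ratios to shuffled positions were 18.1, 5.41, 12.6 and 27.0.

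IAPs accounted for a part of the loci with all 3 marks. The IAP LTR part shown above had 7310 matches in mm9, of which 58.1% lay in loci with all 3 marks (shuffled 0.947%) and 22.2% in no locus. A gag product is the stretch amplified by the primer pair, of median 96 bp with both primers included. Of 809 gag products, 98.0% lay in such loci with all 3 marks, as did 95.8% of 1074 exact sites of the RNA FISH probe. Seen from the loci, 2362 of 6469 (36.5%) held an IAP match, and 4107 did not. Those with a match had a median width of 5674.5 bp and median top folds of 9.78 for H3K9me3, 3.19 for Uhrf1 and 6.51 for Trim28. Those without had 1529 bp and folds of 3.83, 2.70 and 3.69. The LTR part was seen in 1.13% of H3K9me3 only, 2.13% of H3K9me3 and Trim28 and 0.00742% of Uhrf1 only loci, against 36.0% of loci with all 3 marks.

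Leaving out all peaks within 8 kb of an IAP match, an alternative chosen after seeing the data, kept every overlap above shuffled positions. Then 64.9% of Trim28 peaks had H3K9me3 (ratio 18.1), 21.5% of Uhrf1 peaks had H3K9me3 (7.17), 14.4% had Trim28 (11.1) and 12.7% had both (13.9). There were 3874 loci with all 3 marks left, and their median width was 1542.5 bp.

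Along IAPez, the 3 marks had different shapes. The gag product was under H3K9me3 and under Trim28 at 99.9% of the 809 copies each, and under Uhrf1 at 39.8%. H3K9me3 covered at least 50% of copies from 1500 bp upstream to 5600 bp downstream of the gag product, and Trim28 from 1200 bp upstream to 5500 bp downstream, with LTRs at median offsets of -1226 and 5527 bp. Outside the element H3K9me3 fell slowly, with 42.4% of copies covered 2000 bp upstream of gag, while Trim28 covered 1.98% there and Uhrf1 0.371%. Uhrf1 was narrow: its share was highest 900 bp upstream of gag, just inside the LTR, at 71.2% of copies, and was 4.70% at 500 bp upstream. A lower summit of 37.6% stood 100 bp downstream of the gag position. The RNA FISH site, 1669 bp downstream of gag in the median, was under Uhrf1 at 1.77% of copies and under H3K9me3 at 99.7%.

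Both Uhrf1 replicates had their summit at the same place. At 900 bp upstream of gag, 42.2% of copies were under a Uhrf1 peak in replicate 1 and 31.6% in replicate 2, and 157 copies were so in both. The IAPez window printed above is taken from here and holds 8 CpGs in 200 bases. At the gag product, H3K9me3 was present at 83.3% and 45.7% of copies in replicates 1 and 2, Uhrf1 at 10.4% and 13.7%, and Trim28 at 95.7% and 84.8%. Copies are near-identical and share reads, so they are not independent.

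**Figure D3:**
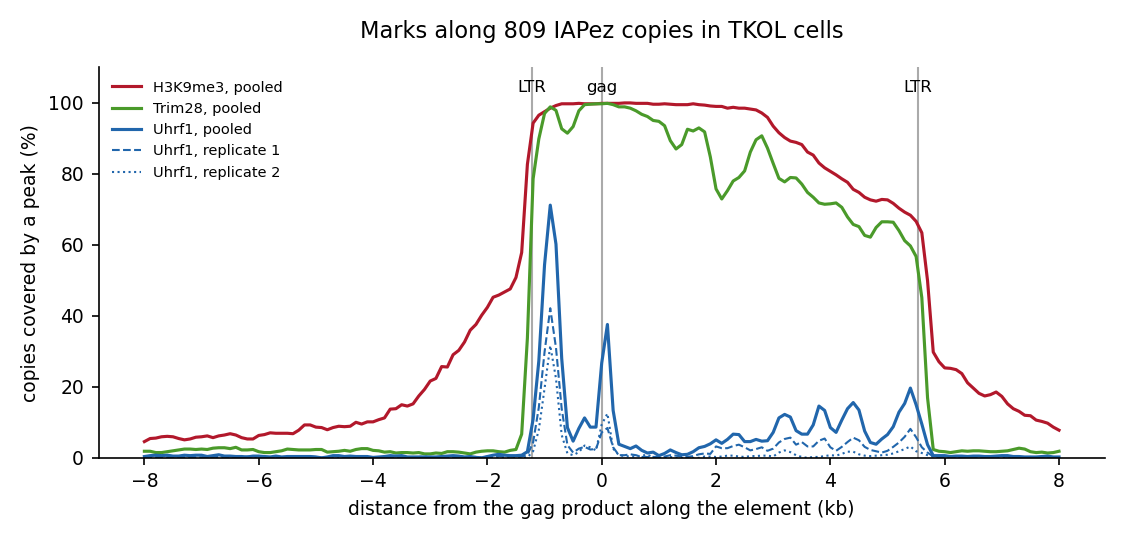
Share of 809 IAPez copies under a peak (percent) by distance from the gag product along the element (kb), for pooled H3K9me3 (red), Trim28 (green) and Uhrf1 (blue) and for Uhrf1 replicate 1 (dashed) and 2 (dotted), with grey lines at gag and at the median place of the LTRs. H3K9me3 and Trim28 fill the element, and Uhrf1 is highest 900 bp upstream of gag, at 71.2%, 42.2% and 31.6% of copies in the pooled list and the replicates.

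The sequence shared by the other loci was sought as 24-base words, each chosen to be in as many as possible of the loci with all 3 marks not yet held by an earlier one. Because the words were chosen from these loci, their shares are a description. The 12 words held 77.3% of the loci, and the share of placements held by all 12 together was not counted. Not every word was more frequent than in placements, since word 12 was in 2.03% of the loci and 6.84% of placements. Words 1 and 9 are mostly IAP words, since 97.4% and 98.6% of their loci had an IAP match, and words 2, 3, 4 and 11 mostly are not. No repeat annotation was used, and the words are named only by number.
Word 1: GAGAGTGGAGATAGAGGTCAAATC
Word 2: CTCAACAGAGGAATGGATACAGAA
Word 3: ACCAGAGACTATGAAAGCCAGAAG
Word 4: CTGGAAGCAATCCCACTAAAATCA
Word 11: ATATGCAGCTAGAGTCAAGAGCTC

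Word 1 was in 33.7% of loci with all 3 marks and 0.427% of placements, and has 2751 copies in mm9. Word 2 was in 16.4% of the loci and 4.35% of placements, with 33363 copies. Word 3 was in 12.6% and 1.99%, and also in 19.2% of H3K9me3 and Trim28 loci. Word 4 was in 15.3% and 2.01%, and word 11 in 6.43% and 4.25%. Uhrf1 only loci held words 1 to 4 at 0%, 0.156%, 0.0223% and 0.0408%. Words 2 to 4 thus have many more copies in mm9 than loci with all 3 marks that hold them, with 33363 copies and 1062 loci for word 2, whereas word 1 has 2751 copies and 2183 loci.

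The loci without IAPs were uneven over the genome. Such loci, with or without IAPs, stood at 4.81 per Mb on chromosomes 10 to 14 and at 1.66 per Mb on the other autosomes. Those with an IAP match were even, with a ratio of 1.06, and those without had a ratio of 5.16. Words 2, 3 and 4 occur in mm9 at nearly equal density, with ratios of 0.969, 0.915 and 0.876. Loci with all 3 marks that hold them had ratios of 24.6, 19.2 and 44.6. Since the words were picked for being frequent in these same uneven loci, their ratios are a description and no separate result. Chromosome 13 had 4.15 loci without an IAP match per Mb, chromosome 11 2.25, chromosome 15 1.27 and chromosome X 2.49. Chromosome Y, of which 2.70 Mb are known, had 52 such loci, or 19.2 per Mb. Among the single-replicate lists, the excess was highest in TKOL replicate 1: Uhrf1 peaks with both other marks had a ratio of 2.54 in replicate 1 and 1.15 in replicate 2 of TKOL, 1.28 and 1.10 in DKO0 and 1.12 and 1.04 in WT. H3K9me3 and Trim28 peaks, with or without company, were denser on chromosomes 10 to 14 in every replicate of the 3 lines, with ratios of 1.25 to 1.80, while Uhrf1 peaks had 1.64 and 0.986 in TKOL replicates 1 and 2. The cause was not tested.

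Without chromosomes 10 to 14, an alternative chosen after seeing the data, 19.2% of Uhrf1 peaks had both other marks (ratio 16.5), and the 3575 loci with all 3 marks had a median of 3745 bp. Uhrf1 peaks were also dense on chromosomes 6 and 8, at 2.15 and 1.74 times the median of the other autosomes in the pooled list. The ratios for these chromosomes were 2.45 and 2.03 in replicate 1 and 2.29 and 1.98 in replicate 2. DKO0 replicates had a like excess, with 2.25 and 1.93, and 2.50 and 2.18, and WT replicates had 0.861 and 1.26, and 0.869 and 1.24. Without these chromosomes, also chosen after seeing the data, 27.1% of Uhrf1 peaks had both other marks (ratio 18.3).

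**Figure D4:**
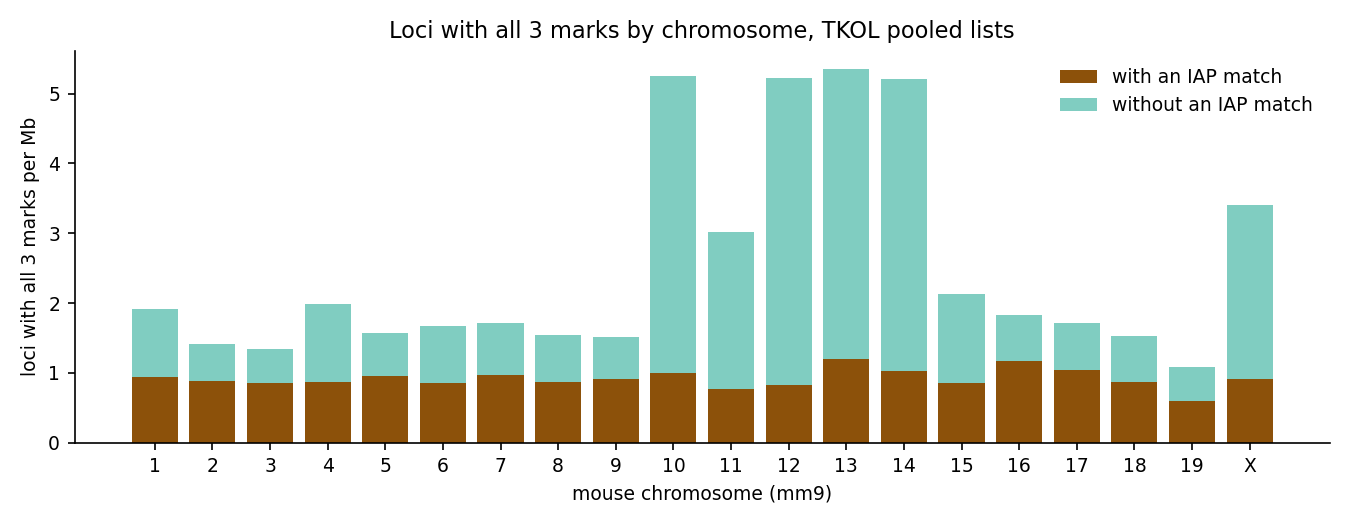
Loci with all 3 marks per Mb of known sequence on each mouse chromosome but Y, which at 20.4 per Mb would leave the scale, in the pooled TKOL lists, with those that hold an IAP match in brown and the others stacked on top in green. Brown parts are alike, and green parts are tallest on chromosomes 10, 12, 13 and 14, where they reach 4.25, 4.39, 4.15 and 4.18 per Mb.

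Loci with all 3 marks in the pooled lists lay at start sites less often than shuffled loci and were less intronic than the genome. On the mm9 annotation of protein-coding genes, 120 of them (1.86%) came within 1 kb of a start site, against 5.63% (5.05% to 6.62%) of shuffled loci of the same widths, a ratio of 0.329. H3K9me3 and Trim28 loci had the lowest ratio, with 0.757% against 3.39% (0.223), and H3K9me3 only had 1.07% against 2.65% (0.405). Uhrf1 only loci were at start sites about as often as shuffled ones (2.55% and 2.50%). Trim28 only loci were there 3.00 times as often (7.67% and 2.55%), and Uhrf1 and Trim28 loci 2.03 times (5.74%, 30 loci, and 2.82%). Of the bases under loci with all 3 marks, 44.3% were intergenic and beyond 50 kb of a gene, against 35.7% of the known genome, 33.4% were intergenic within 50 kb (24.8%), 21.4% were intronic (35.03%) and 0.207% were coding (1.14%). Their median distance to a start site was 71.8 kb, and 58.7 kb for shuffled loci. These traits were not particular to loci with all 3 marks. Intronic bases made up 21.9% of H3K9me3 and Trim28 loci and 20.9% of H3K9me3 only loci. Bases beyond 50 kb of a gene made up 46.6% and 38.1% of these 2 classes. Median distances to a start site were 91.8 kb (shuffled 57.7 kb) and 57.9 kb (shuffled 56.5 kb).

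The promoter shares of Trim28 and Uhrf1 differed between replicates, in opposite directions. Of Trim28 peaks, 3.72% in replicate 1 and 1.27% in replicate 2 were within 1 kb of a start site, 1.49 and 0.515 times the shuffled share. Of Uhrf1 peaks, 1.59% in replicate 1 and 5.62% in replicate 2 were, 0.664 and 2.20 times the shuffled share. H3K9me3 peaks were alike, with 0.996% and 0.844%. Of the 1294 promoter peaks with Trim28 only, 43.4% were also in the replicate 1 list, 2.70% in the replicate 2 list and 1.08% in both, and the rest were in the pooled list alone. Loci with all 3 marks were at promoters in 1.32% of cases in the replicate 1 lists and 3.27% in the replicate 2 lists. No placements were made for these loci, which are narrower than the pooled ones. For comparison, shuffled loci of H3K9me3 and Uhrf1, of median 421 bp, were there in 2.87% of cases. Those of H3K9me3 and Trim28, of median 712 bp, were there in 3.39%. Depletion at start sites was thus not tested in the single-replicate lists.

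**Figure D5:**
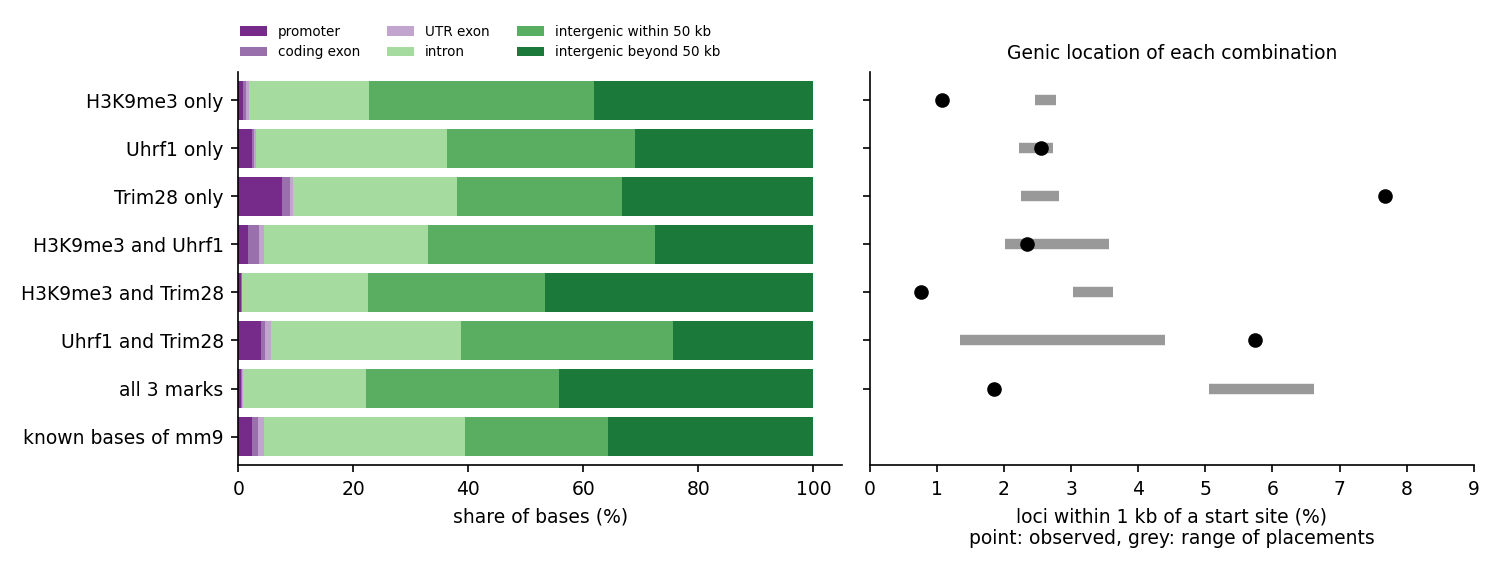
Left, share of bases (percent) in each genic class for every combination of marks and for the known bases of mm9. Right, share of loci within 1 kb of a start site (percent, points) with the range over 100 placements (grey). Loci with all 3 marks are at 1.86%, below their shuffled range of 5.05% to 6.62%, and Trim28 only loci at 7.67%, above theirs.

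At the level of genes, 815 of 22359 protein-coding genes (3.65%) had an H3K9me3 peak within 1 kb of a start site, 787 (3.52%) a Uhrf1 peak and 1513 (6.77%) a Trim28 peak. All 3 marks stood at 65 genes (0.291%), at 56 of them in overlapping peaks, and 16 genes had each mark in each replicate. The share was 0.287% on chromosomes 10 to 14 and 0.253% on the other autosomes. The 65 genes are not all separate places. Several lie in a block on chromosome 9, from Gm10722 (start site 3000922) to Gm17535 (start site 3034599). Gm10801 and Gm10800 lie close together on chromosome 2. Uhrf1 folds at these clustered genes were 1.25 to 1.71, and they count towards the share of the other autosomes. Most of the 20 highest-ranked genes are predicted or uncharacterised, and 10 of the 20 had an IAP match in the locus. The highest was 4930425F17Rik on chromosome 2, with folds of 6.26 for H3K9me3, 5.83 for Uhrf1 and 6.98 for Trim28, in both replicates of each mark. Its locus of 3876 bp has an IAP match. 4930423O20Rik on chromosome 16 had folds of 8.50, 4.39 and 6.68 at an IAP locus of 2092 bp, again in both replicates of each mark.

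Phf21a, which encodes a subunit of the histone demethylase complex of Lsd1, had folds of 6.88, 4.18 and 6.26 in both replicates of each mark. Gm17555, Gm17579, Gm10991, Gm2783, Gm3129 and Gm7735 each had an IAP match in a locus of 4252 to 7283 bp, with H3K9me3 folds of 10.2 to 14.3. At their start sites, H3K9me3 had a peak in both replicates at Gm17579, Gm2783 and Gm3129 and in 1 at Gm17555. It had a peak in 0 at Gm10991 and Gm7735, where the folds were highest. Uhrf1 was in 1 replicate at each of these genes, and Trim28 in 0 at Gm7735. Rps29, a protein of the small ribosomal subunit, stood out by a Trim28 fold of 72.5 in the pooled list. Its folds were 11.5 for H3K9me3 and 2.76 for Uhrf1. The locus of 497 bp had 5.23 CpGs per 100 bp and 1.72% repeated words. At Rps29, H3K9me3 and Trim28 had peaks in both replicates and Uhrf1 in 1. A Trim28 fold of that height was in neither replicate list, where the highest of all peaks were 18.3 and 21.4 in replicates 1 and 2. Eps8l1 (folds 8.50, 2.75 and 3.06) had an IAP match, with H3K9me3 in both replicates and Uhrf1 and Trim28 in neither. Ckap5, which encodes a microtubule polymerase of the spindle, had folds of 2.84, 2.72 and 3.19 and a peak in no replicate list.

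Gene families were counted against these shares. Of 361 Zfp genes, named for zinc fingers, 38 (10.5%) had H3K9me3, 25 (6.93%) Uhrf1, 25 (6.93%) Trim28 and 3 (0.831%) all 3 marks at a start site. The 3 are Zfp386 (folds 3.85, 2.67 and 3.62), Zfp600 (2.99, 2.95 and 2.90) and Zfp960, and none of them had each mark in each replicate. Of 81 ribosomal protein genes, 3 had H3K9me3, 2 Uhrf1, 15 (18.5%) Trim28 and 1, Rps29, all 3. Of the 30 imprinted, 26 germline, 9 two-cell-stage, 19 pluripotency, 25 heterochromatin factor, 39 Hox, 1087 olfactory receptor, 202 Vmn1r and 117 Vmn2r genes found, 0 had all 3. H3K9me3 was at 12 Vmn1r and 9 Vmn2r genes, which encode vomeronasal receptors, at 18 (1.66%) of olfactory receptor genes and at 0 Hox genes, and Uhrf1 was at 5 of 39 Hox genes (12.8%). Of the 19 pluripotency genes, 5 (26.3%) had Trim28, 2 Uhrf1 and 0 H3K9me3. Folds were 2.60 to 3.05 for Trim28, and for Uhrf1 5.43 at Zfp42 and 3.01 at Esrrb. Of all genes, 6.77% had Trim28 in the pooled list, 5.58% in replicate 1 and 0.921% in replicate 2. For Uhrf1 these shares were 3.52%, 1.11% and 3.84%. Support by each replicate was not counted for single marks in the Zfp, ribosomal protein, Hox, pluripotency and receptor genes.

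Imprinted genes are described because of their Trim28 values, which were seen first. In the pooled list, 14 of 30 (46.7%) had a Trim28 peak at a start site, against 6.77% of all genes, and 2 each had H3K9me3 and Uhrf1. The Trim28 folds were 15.3 at Nap1l5, 13.8 at Plagl1, 9.57 at Nnat, 8.41 at Peg3 and 7.78 at Mest. The peaks rested on 1 library: 13 of the 30 genes had a Trim28 peak in TKOL replicate 1 and 0 in replicate 2, 0 in either DKO0 replicate, and 5 and 3 in the WT replicates.

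The 10 loci with the highest value of the weakest mark were short non-IAP loci first and IAP loci after. Loci 1, 2 and 3, on chromosomes 5, 1 and 1, are 306, 662 and 246 bp long and lie between genes, the first 88795 bp from Agpat9 and the others 308824 and 30907 bp from Sec16b. Locus 1 had folds of 10.1 for H3K9me3, 15.2 for Uhrf1 and 10.7 for Trim28. Locus 2 had 12.1, 11.6 and 9.54, and locus 3 had 17.2, 8.99 and 15.3. All 5 leading loci hold word 11, which has 33297 copies in mm9, and each mark was in both replicates at all 5 except Trim28 at locus 1, which was in 1. Locus 6, of 198 bp in an intron of Flt1, a VEGF receptor gene, had folds of 12.3, 7.26 and 9.69 and no CpG. Loci 7 to 10 each had an IAP match, were 2650 to 4995 bp long and had lowest folds of 6.95 to 7.18.

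Whether the 3 marks met as often once Dnmt1 was restored was asked with the single-replicate lists of DKO0. The study's names for these lists carry an earlier passage for Uhrf1 than for H3K9me3 and Trim28. The DKO0 overlap may thus combine marks from different times after the return of Dnmt1. Of Uhrf1 peaks, 18.8% and 4.71% had both other marks in TKOL replicates 1 and 2, and 13.9% and 6.30% in DKO0. The groups overlapped. The means were 11.8% ± 9.96 (SD, n = 2) and 10.1% ± 5.40 (SD, n = 2), a difference of 1.63 percentage points that was smaller than the spread between replicates (exact two-sided permutation test, p = 1, where the smallest p that 2 against 2 lists allow is 0.333). In replicate 1 alone the difference was 4.86 points, and in replicate 2 alone it was -1.59.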

How the data were processed

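Per the labels and the study's methods, the authors' pipeline ran BWA mem against mm9, GATK to drop duplicates and MACS2 to call peaks, first in each replicate and then, with input, in the merged reads of both. Each deposited peak comes with its fold enrichment, which is a ratio to local background, and a q-value on the -log10 scale. They hold no read numbers, so the depth reached in each library cannot be read from them. Nothing says whether the 2 replicates are separate cultures, so their spread may be technical.

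Peaks on chromosomes 1 to 19, X and Y were kept. Overlap needed 1 bp. Placements kept each peak's width and chromosome, outside assembly gaps (1000 for overlaps, 100 for genic location, 20 for sequence and 200 for alternatives). IAP matches were found with blastn 2.17.0 at 80% identity over 80% of the query, or exactly for primers and probe. Genes came from the GENCODE annotation of mm9. The named genes are the 20 with the highest value of their lowest fold and the genes of the lists, and the named loci are the 10 highest. Genes outside this rule are named after their values were seen. Members and lists were chosen with earlier results of these data known. Overlaps were checked with bedtools 2.31.1 (0 of 6 pairs of lists differed) and the steps were tested on simulated data. DMRs, regions that gain methylation after Dnmt1 returns, were taken from the study for 1 alternative. Other alternatives were a stricter q-value, a larger overlap, equal list sizes, replicates, a circular shift, windows, genes and joining. Python 3.11.15, numpy 2.4.6 and matplotlib 3.10.9 were used.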

Additional observations from a re-analysis of the deposited data

Results flagged for a closer look

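Peaks on mitochondrial DNA or on unplaced sequence were counted together and left out of every comparison. Such peaks were more frequent in some TKOL lists than in WT. The Trim28 list of replicate 1 had 10, the Uhrf1 lists 7 and 4 in replicates 1 and 2, and the H3K9me3 list of replicate 1 had 5, whereas WT lists had 0 to 2. The lists of replicate 2 for H3K9me3 and Trim28 had 0, and DKO0 lists had 0 to 4. The cause was not tested.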

How the results depend on the processing

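All 48 ratios of overlap to shuffled positions stayed above 1 under 12 alternatives, and none reversed. In the order Trim28 with H3K9me3, Uhrf1 with H3K9me3, Uhrf1 with Trim28 and Uhrf1 with both, the ratios were 36.2, 17.9, 28.5 and 29.8 for peaks past a -log10 q-value of 5, and 35.1, 18.8, 35.3 and 37.0 for pooled peaks found in both replicates. In the lists of 1 replicate each they ranged from 36.9 to 66.1, 15.5 to 22.9, 38.0 to 39.7 and 40.4 to 49.4. Shorter lists lower the shuffled share by construction. Uhrf1 with Trim28 also moved to 17.9 with more of the peak required to be covered, 15.7 with lists of equal size, 12.6 without peaks of mostly repeated sequence, 15.3 without chromosomes 6 and 8 and 11.1 without IAPs, and Uhrf1 with both to 27.0 without peaks of mostly repeated sequence. The median width of loci with all 3 marks was 5570 bp with peaks up to 1 kb apart joined, 4248 bp at the stricter q-value, 538.5 to 634 bp in single replicates, 3745 bp without chromosomes 10 to 14 and 1542.5 bp without IAPs. Their promoter share was 3.93% with all annotated genes and 1.32% to 3.27% in single replicates, and placements were made for neither. For TKOL against DKO0, the paired value (replicate block) was 1.63 points (exact sign-flip test, p = 1, smallest possible 0.5), and leaving out 1 replicate gave -1.59 to 4.86 points, a reversal without replicate 1. The same numbers do not say that the lists were paired in the experiment.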
